A study of Homo sapiens with 24 samples.

Results

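Binding of S100A8 and S100A9 was examined at 10 heat shock and chaperone genes, out of 20098 protein-coding genes: HSPA1A, HSPA1B, HSPA5, HSPA8, HSP90AA1, HSP90AB1, HSPD1, HSPE1, DNAJB1, and HSF1. These genes were chosen by name, and all of them were found in the annotation. For each gene, peaks of Flag chromatin immunoprecipitation sequencing (ChIP-seq) were taken where the summit lay in the gene body or within 10 kb of it. A promoter call was a peak with q ≤ 1e-07 whose summit lay in the window that starts 1500 bp before a transcription start site (TSS) of the gene and ends 250 bp after it. Fold enrichment is the signal at the summit over the input chromatin of the same sample, and −log10 q measures how significant the peak was against that input, both as the authors' peak caller gave them.

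The cells were MCF-10A, an established human mammary epithelial line that is not transformed, and they carry ER-Src, in which v-Src, a viral tyrosine kinase that transforms cells, is joined to the hormone-binding part of the estrogen receptor and so is switched on by a receptor ligand. The cell populations also expressed S100A8-Flag or S100A9-Flag from a retroviral vector, in both treatments. Cells were transformed by 24 hours in 1 μM 4-hydroxytamoxifen (TAM) or kept nontransformed in ethanol (EtOH). Peak lists were used of 11 ChIP libraries: S100A8-Flag EtOH (2 replicates), S100A8-Flag TAM (3), S100A9-Flag EtOH (3), and S100A9-Flag TAM (3). ER-Src, the tag, and the vector are present in every group, so that a group describes the tagged proteins in this line and not the endogenous ones. Results from untagged cells were not analyzed here.

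Heat shock proteins are molecular chaperones that bind unfolded polypeptides and help them fold, assemble, or be degraded. The HSP70 family works with J-domain (HSP40) cochaperones, HSP90 matures kinases and receptors, including v-Src, and the HSP60-HSP10 chaperonin folds proteins in mitochondria. Under proteotoxic stress, heat shock factor 1, the product of HSF1, binds heat shock elements in the promoters of inducible members and activates them. Many tumor cells keep high chaperone levels.

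The promoters of 4 members are shown first, as examples of heat shock elements near a S100A8/A9 site and, for HSPA1A and HSPA1B, to compare a pair of near copies. Each run ends at or just before the TSS of the canonical transcript and was read 5′ to 3′ along the gene from GRCh37. The runs cover chr6:31783160-31783319 on the plus strand, chr6:31795355-31795514 on the plus strand, chr14:102553382-102553541 on the minus strand, and chr19:14629220-14629369 on the minus strand. Capitals mark heat shock elements of 2 or more units, GAANNTTC or TTCNNGAA, on either strand.
HSPA1A: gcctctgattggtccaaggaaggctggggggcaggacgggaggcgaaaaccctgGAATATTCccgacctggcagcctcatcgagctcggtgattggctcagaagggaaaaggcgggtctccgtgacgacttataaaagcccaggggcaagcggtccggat
HSPA1B: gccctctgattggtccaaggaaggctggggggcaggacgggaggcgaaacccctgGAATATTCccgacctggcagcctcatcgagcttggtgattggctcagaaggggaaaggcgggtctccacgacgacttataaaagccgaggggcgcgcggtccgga
HSP90AA1: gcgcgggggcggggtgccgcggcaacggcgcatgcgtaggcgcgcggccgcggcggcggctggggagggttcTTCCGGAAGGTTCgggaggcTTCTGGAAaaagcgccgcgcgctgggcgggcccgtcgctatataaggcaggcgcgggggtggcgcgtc
DNAJB1: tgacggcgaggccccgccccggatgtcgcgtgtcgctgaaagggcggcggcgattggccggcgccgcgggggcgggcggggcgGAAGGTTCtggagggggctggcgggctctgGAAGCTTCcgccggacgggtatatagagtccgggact

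The HSPA1A and HSPA1B promoters each held 1 element, at −106 and −105 from the TSS. Over the 250 bases upstream of their TSSs, these promoters were 93.6% identical in a global alignment, with a longest common run of 49 bases. The HSP90AA1 promoter held a 3-unit element (GAANNTTC followed by NNGAA, or its reverse complement) at −88 and a further 2-unit element at −68. The DNAJB1 promoter held 2-unit elements at −77 and −47. In the 250 bases upstream of the canonical TSS, 6 of 10 members had a 2-unit element, compared with 9.51% of all protein-coding genes, and 3 of 10 had a 3-unit element, compared with 0.318%. The 3-unit matches contain 2-unit matches. The HSP90AA1 element at −88 and both DNAJB1 elements overlap matches to the ETS motif CGGAAG.

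HSPA8 had 3-unit elements at −230 and −55, and HSPD1 had overlapping ones at −245 and −240, the latter 149 and 154 bp from the summit of its promoter site. HSPA5, HSP90AB1, HSPE1, and HSF1 had neither form in this window. The HSPE1 window, chr2:198364853-198365102, starts past the end of the HSPD1 window, chr2:198364565-198364814. The HSPD1 elements, which lie upstream of HSPE1 in the promoter the genes share, were therefore not counted for HSPE1. HSPA5, which encodes the HSP70 of the endoplasmic reticulum, instead had an endoplasmic reticulum stress element (CCAAT, 9 bases, then CCACG) at −66, which 0.104% of all promoters had. HSP90AB1 had a CREB motif (TGACGTCA) at −131, which 2.4% of all promoters had. TATAAA was found in the HSPA1A and HSPA1B windows only (2 of 10, compared with 9.42%), CCAAT in 6 of 10 (34.1%), CGGAAG in 5 of 10 (21.7%), CCCCGCCC, bound by KLF/SP1 factors, in 5 of 10 (32.9%), and the AP-1 motif TGANTCA in HSPA5 only (4.73%). The STAT3-type motif TTCNNNGAA, which differs from a heat shock element in its spacing, was found in 0 of 10 (5.66%), as was the THAP11 motif (2.65%). A match describes the letters of a promoter, and no binding of heat shock factors was measured here.

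S100A8 or S100A9 was called at the promoter of all 10 members in at least 1 of the 6 TAM libraries, where 60.6% of all protein-coding genes had such a call. In at least 1 of the 5 EtOH libraries, 9 members were called, and 29% of all genes were. The members with a promoter call numbered 4 ± 1.41 in EtOH libraries (SD, n = 5) and 7.83 ± 1.17 in TAM libraries (SD, n = 6). By library, they numbered 3 and 5 for S100A8 EtOH, 5, 2, and 5 for S100A9 EtOH, 7, 7, and 7 for S100A8 TAM, and 8, 8, and 10 for S100A9 TAM. The EtOH and TAM libraries did not overlap. Of all genes, 5.97 to 12.2% were called in EtOH libraries and 33.3 to 49% in TAM libraries. At this threshold, the members were called at a larger share than all genes in each of the 11 libraries, which describes a chosen list and was not tested.

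**Figure D1:**
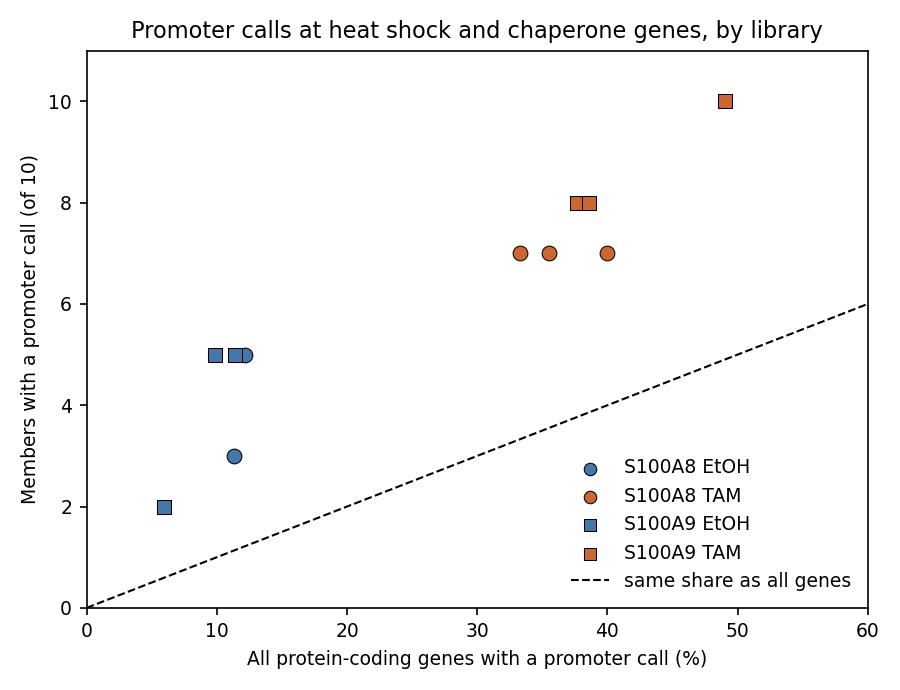
Members with a promoter call (vertical axis, of 10) against the percent of all protein-coding genes with a promoter call (horizontal axis) in the 11 libraries, with circles for S100A8, squares for S100A9, blue for EtOH, and orange for TAM. All libraries lie above the dashed line of equal shares, with 2 to 5 members in EtOH and 7 to 10 in TAM.

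The number of peaks differed between treatments in the same direction. EtOH lists held 9578 to 34653 peaks, of which 1853 to 4609 had q ≤ 1e-07, and TAM lists held 53439 to 109500 peaks, of which 21518 to 40735 did. The lists contain no read numbers, so that fewer calls, weaker binding, and a lower depth cannot be told apart. When the 1853 peaks with the lowest q values were taken from every library, the members with a promoter call numbered 2.2 ± 1.48 in EtOH (SD, n = 5) and 0.667 ± 1.21 in TAM (SD, n = 6), compared with 5.31 to 5.97% and 4.19 to 5.22% of all genes. The direction of the difference between treatments in member counts thus turned with this choice, and 5 libraries (S100A8 EtOH replicate 1, S100A8 TAM replicates 1 and 2, and S100A9 TAM replicates 2 and 3) had 0 members, below the share of all genes. Peaks with q ≤ 1e-10 gave 1.4 members in EtOH and 6.17 in TAM, with 0 members in S100A8 EtOH replicate 1 and S100A9 EtOH replicates 1 and 2.

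**Figure D2:**
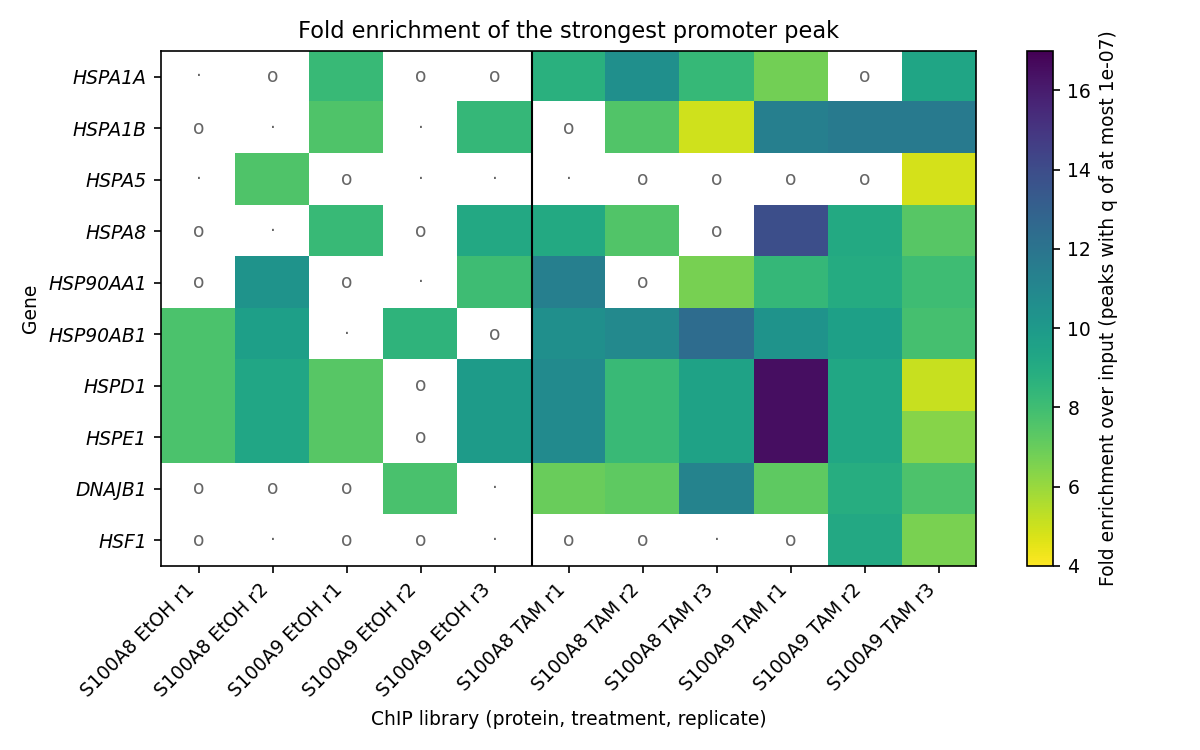
Fold enrichment over input of the strongest promoter peak (color scale, for peaks with q ≤ 1e-07) of each gene (rows) in each of the 11 libraries (columns, EtOH left of the line and TAM right of it). Open circles mark peaks above that q value, and dots mark windows with no peak. HSPD1 and HSPE1 were called in 10 libraries each, and HSPA5 and HSF1 in 2 each.

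HSPD1, the HSP60 chaperonin, and HSPE1, its HSP10 cochaperonin, are transcribed in opposite directions from a shared promoter, with TSSs as close as 68 bp, and had the most promoter calls. They count as 2 members but share a site at chr2:198363566-198365187, called in 4 of 5 EtOH and 6 of 6 TAM libraries. Its fold enrichment was 7.7 and 9.32 in S100A8 EtOH, 7.36 and 9.86 in the S100A9 EtOH replicates 1 and 3, 10.8, 8.21, and 9.5 in S100A8 TAM, and 16.5, 9.28, and 6.37 in S100A9 TAM. The lowest and the highest value came from libraries of the same group. In S100A9 EtOH replicate 2, the strongest peak had a −log10 q value of 3.36 and was not called. Summits of the calls spread over 901 bp, and those of the 4 EtOH calls lay between 198364683 and 198364744. This was the only member site confident in all 4 conditions, that is, called in at least 2 replicates of each.

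HSP90AB1, the constitutive cytosolic HSP90, was called in 3 of 5 EtOH and 6 of 6 TAM libraries. Fold enrichment at its promoter was 7.7 and 9.64 in S100A8 EtOH and 8.57 in S100A9 EtOH replicate 2, and it had a median of 10.4 (7.84 to 12.4) in TAM. The calls fell on 3 neighboring sites. The site at chr6:44213759-44214452, near the most upstream TSS, was called in 6 of 6 TAM libraries and in S100A8 EtOH replicate 2. The site at chr6:44214655-44214971, over the TSS of the canonical transcript, was called in 5 libraries, and that at chr6:44215181-44215729, in the first part of the gene, was called in S100A9 TAM replicates 2 and 3 only.

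The last of these sites is the only one of 26 near the members with a 3-unit heat shock element within 100 bp of its summit, compared with 0.201% of 9441 promoter sites and 0.273% of 20881 other sites. It lies in an intron of the canonical transcript. Its sequence is shown because the element (capitals) lies inside the peak, at chr6:44215341-44215541 on the plus strand.
HSP90AB1 intron: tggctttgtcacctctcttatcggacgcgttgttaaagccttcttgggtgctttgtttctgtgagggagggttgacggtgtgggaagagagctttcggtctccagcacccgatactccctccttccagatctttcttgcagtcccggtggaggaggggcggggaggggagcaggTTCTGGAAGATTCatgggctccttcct

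HSP90AA1, the stress-inducible cytosolic HSP90, was called in 2 of 5 EtOH and 5 of 6 TAM libraries, and the EtOH calls lay away from the canonical TSS. The call of S100A8 EtOH replicate 2, with a fold enrichment of 10.3, was at a distant upstream TSS that lies 145 bp from a TSS of WDR20. The call of S100A9 EtOH replicate 3, at 8.03, had its summit at −1413 bp from the canonical TSS. At the canonical TSS, next to the elements shown above, the site at chr14:102553133-102553700 was called in no EtOH library and in 5 TAM libraries, with fold enrichments of 11.4 and 6.67 for S100A8 and 8.33, 7.87, and 8.06 for S100A9. Its strongest summit lay 50 bp downstream of the TSS, in the 5′ untranslated region, and 118 to 138 bp from the elements. The summits of this site spread over 266 bp. Outside the threshold, S100A8 EtOH replicate 1 had a peak at −11 bp from the canonical TSS, with a fold enrichment of 6.06 and a −log10 q value of 5.37.

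HSPA1A and HSPA1B encode the nearly identical inducible HSP70 proteins. HSPA1A was called in 1 of 5 EtOH libraries, at a fold enrichment of 8.23 in S100A9 replicate 1, and in 5 of 6 TAM libraries, at 8.74, 10.5, and 8.27 for S100A8 and 6.78 and 9.37 for S100A9. Its calls stayed within 184 bp of each other, and the site summit was 59 bp downstream of the TSS. TSSs of HSPA1A and HSPA1L lie 260 bp apart, so that the HSPA1A calls cannot be assigned to either gene. HSPA1B was called in 2 of 5 EtOH libraries, at 7.56 and 8.35, both S100A9, and in 5 of 6 TAM libraries. The TAM values were 7.51 and 4.94 for S100A8 and 11.4, 11.7, and 11.7 for S100A9. The values of 4.94 and 11.4 came from another site, at −791 bp from the TSS, that was called in 3 TAM libraries, so that HSPA1B had 2 promoter sites. Only uniquely mapped reads were kept by the authors. The 50-base words of HSPA1A were looked for in HSPA1B and its flanks, on either strand. Of these words, 0% in the 1500 bases before the TSS and 0% in the 250 bases after it were found. This compares with 86.8% in the first 2000 bases of the gene. In the 250 bases upstream, the longest common run was 49 bases, so that no 50-base word could match its counterpart there. Whether reads map uniquely at these promoters was not tested.

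HSPA8, the constitutive HSP70, was called in 2 of 5 EtOH libraries, both S100A9, at fold enrichments of 8.23 and 9.17. In S100A8 EtOH replicate 1, the strongest promoter peak had a fold enrichment of 7.5 and a −log10 q value of 6.8, just outside the threshold. HSPA8 was called in 5 of 6 TAM libraries, at 9.11 and 7.53 for S100A8 and 13.9, 9.08, and 7.38 for S100A9. These calls formed a broad site at chr11:122932156-122933860 with summits spread over 1331 bp, the widest spread among the member sites. Its strongest summit, that of S100A9 TAM replicate 1, lay at −484 bp from the canonical TSS and 254 to 434 bp from the heat shock elements. The summits of S100A9 EtOH replicate 3 (122933041) and S100A9 TAM replicate 2 (122933106) lay nearer the elements at −230 and −225, and others lay farther. These distances thus do not place the center of binding.

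DNAJB1, the J-domain cochaperone that activates HSP70 and a classical target of heat shock factor 1, was called in 1 of 5 EtOH and 6 of 6 TAM libraries. The EtOH call was S100A9 replicate 2, at a fold enrichment of 7.74 and a −log10 q value of 7.29, just past the threshold. The TAM values at the site of the main promoter, chr19:14628655-14629784, were 6.63, 7.21, and 11.2 for S100A8 and 7.2, 8.92, and 7.61 for S100A9. The strongest summit of this site lay at −392 bp from the canonical TSS and 315 to 345 bp from the elements, and its summits spread over 884 bp. Another promoter call, in 3 TAM libraries, fell at a promoter shared with TECR, at −11.16 kb from the canonical TSS.

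HSPA5 had the fewest calls together with HSF1. It was called in S100A8 EtOH replicate 2, at a fold enrichment of 7.56, and in S100A9 TAM replicate 3, at 4.84. Their −log10 q values of 7.18 and 7.19 were just inside the threshold, and the next strongest promoter peaks, in S100A8 TAM replicate 3 (6.39) and S100A9 TAM replicate 1 (6.28), were just outside. HSPA5 had no confident promoter site in any condition. Its only confident site was at −2179 bp from the canonical TSS, at chr9:128005663-128005855, called in S100A9 TAM replicates 2 and 3.

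HSF1, the regulator of the inducible members, was called in no EtOH library and in S100A9 TAM replicates 2 and 3, at fold enrichments of 9.15 and 6.61. TSSs of HSF1 and BOP1 lie 191 bp apart, so that these calls cannot be assigned to either gene. S100A8 was called at the HSF1 promoter in no library, and its strongest peak had a −log10 q value of 5.03. In S100A9 EtOH replicate 2, the HSF1 promoter peak had a −log10 q value of 6.3 and was not called. Its fold enrichment of 7.1 was above the 6.61 of S100A9 TAM replicate 3.

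The difference between TAM and EtOH was tested for each gene by exact permutation of treatment labels within each protein (200 arrangements, two-sided), with Benjamini-Hochberg adjustment over 20098 genes. Of all genes, 0 (0%) were called at an adjusted p of 0.05 or less. In this exact permutation test, 2265 genes (11.3%) had an unadjusted p of 0.05 or less with more calls in TAM. The smallest p that the design allows is 0.01, and at least 4020 genes would have to reach it for any gene to pass. Among the members, DNAJB1 was the only one with an unadjusted p under 0.05: its share of libraries with a call was higher in TAM by 0.833 (exact permutation p = 0.04, adjusted p = 0.355). This difference was 0.5 at q ≤ 1e-10 (exact permutation p = 0.3), 0.167 with every deposited peak (exact permutation p = 1), −0.167 with equal numbers of top peaks, and 0 at the 5′ end of the gene alone, where DNAJB1 had no call. The other 9 members had differences from −0.083 (HSPA5) to 0.667 (HSPA1A) and exact permutation p values from 0.1 to 1. No member was called in 0 EtOH and 6 TAM libraries, a pattern of 2.83% of all genes.

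The −log10 q value of the strongest promoter peak, set to 0 where there was none, was compared in the same way because it does not use the threshold of 1e-07. The lists end at q = 0.05, so that this value is cut there, and 8 of 10 members had at least 1 EtOH value of 0. It also grows with depth. By the exact permutation test, 7 of 10 members (HSPA1A, HSPA1B, HSPA8, HSP90AB1, HSPD1, HSPE1, and DNAJB1) had an unadjusted p of 0.05 or less with higher values in TAM, compared with 33.7% of all genes, and none had an adjusted p under 0.0631, the smallest over all genes. The treatments did not overlap at HSP90AB1, where values were 0 to 11.7 in EtOH (mean 6.25 ± 4.57, SD, n = 5) and 12.7 to 21.4 in TAM (mean 17.4 ± 3, SD, n = 6). These values came from different neighboring promoter sites. At the site chr6:44213759-44214452 alone the treatments overlapped, with 7.09 in S100A9 TAM replicate 1 and 11.7 in S100A8 EtOH replicate 2. The strongest promoter peaks of DNAJB1 did not overlap either, with values of 0 to 7.29 in EtOH and 8.11 to 17.4 in TAM. In S100A8 TAM replicate 1, the DNAJB1 value (8.73) came from the promoter shared with TECR. At the site of the main promoter, that library had 7.3, next to the highest EtOH value of 7.29. The share of all genes without overlap was not counted, so the lack of overlap is only a description of these members. HSPA1B and HSPA8 overlapped, with TAM libraries as low as 5.82 and 4.74.

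**Figure D3:**
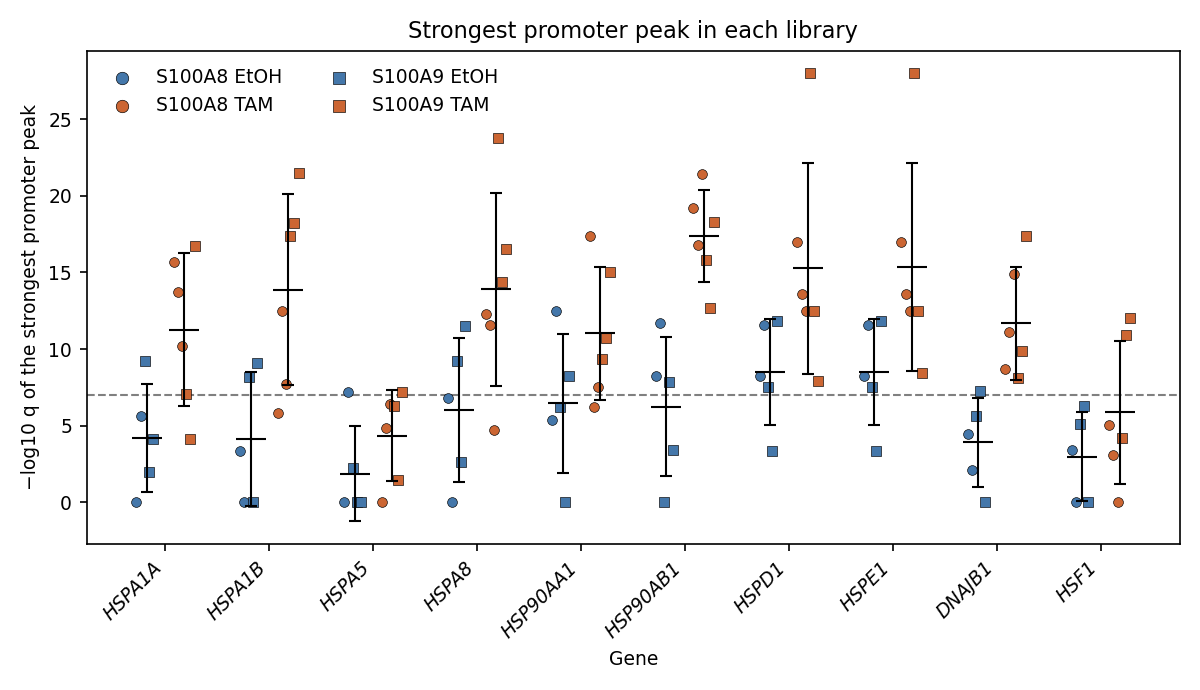
The −log10 q value of the strongest promoter peak (vertical axis) of each gene (horizontal axis) in 5 EtOH (blue) and 6 TAM (orange) libraries, with circles for S100A8, squares for S100A9, and the mean ± SD in black. The dashed line is the threshold of 7, and values of 0 mark windows with no peak. The treatments do not overlap at HSP90AB1 and DNAJB1, a pattern that was not counted over all genes.

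S100A8 and S100A9 were compared by permuting the protein within each treatment. Of all genes, 14 (0.0697%) had an unadjusted exact permutation p of 0.05 or less, and no adjusted p was under 1. For the members, this exact permutation p was 0.3 to 1. With the −log10 q value in place of calls, the exact permutation p was 0.03 for HSPA1B (higher for S100A9 by 7.23), 0.03 for HSP90AB1 (a difference of −4.86, S100A9 minus S100A8), 0.06 for HSPA8 (6.53), and 0.08 to 0.96 for the others, with an adjusted p of 1 for each. The share of all genes is not given for this measure, and the 0.0697% belongs to the test of calls, so the 2 cannot be set side by side. The largest differences in calls were those of HSPA1B and HSPA8, with a share of calls higher by 0.5 for S100A9 (exact permutation p = 0.3 for each). In EtOH, HSPA1B and HSPA8 were called in 2 of 3 S100A9 libraries and 0 of 2 S100A8 libraries, whereas HSP90AB1 was called in 1 of 3 and 2 of 2. For HSPA8, S100A8 EtOH replicate 1 was just outside the threshold, with a −log10 q value of 6.8. With 5 S100A8 and 6 S100A9 libraries, these p values do not show that the proteins bind alike.

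In S100A8 EtOH, 3 members (HSP90AB1, HSPD1, and HSPE1) had a promoter call in at least 2 replicates, compared with 4.61% of all genes. The HSP90AB1 calls of these replicates fell on separate sites, so that the site shared by HSPD1 and HSPE1 was the only member promoter site confident in S100A8 EtOH. In S100A9 EtOH, 4 members (HSPA1B, HSPA8, HSPD1, and HSPE1) did, compared with 5.69%. These numbers were 8 members in S100A8 TAM, compared with 36.7% of all genes, and 9 in S100A9 TAM, compared with 43%. HSPA5 and HSF1 were missing in S100A8 TAM, and HSPA5 was missing in S100A9 TAM. The HSPA1B calls of S100A8 TAM replicates 2 and 3 also fell on separate sites, and neither site was confident in S100A8 TAM.

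When the window was widened to the gene body and 10 kb around it, 5.6 ± 1.67 members (SD, n = 5) had a call in EtOH and 9 ± 1.1 (SD, n = 6) in TAM, compared with 11 to 23.6% and 59.3 to 75.9% of all genes. There were 26 confident sites in these windows, 14 of them at the promoter of some protein-coding gene (53.8%, compared with 31.1% of 30322 sites genome-wide). The windows were drawn around genes, whereas the genome-wide sites include those far from genes, so a higher promoter share is built into this choice. All 26 were confident in TAM, as were all but 116 of the 30322 sites genome-wide. Of the 26, 4 (15.4%) were also confident in EtOH, compared with 6.9% of all sites. Both proteins had 11 of the 26 (42.3%, compared with 43.3%). HSP90AB1 had 6 sites in reach, HSPA1A, HSPA1B, and DNAJB1 had 5 each, and HSPA5, HSPA8, and HSPE1 had 1 each, with some sites in reach of 2 members.

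**Figure D4:**
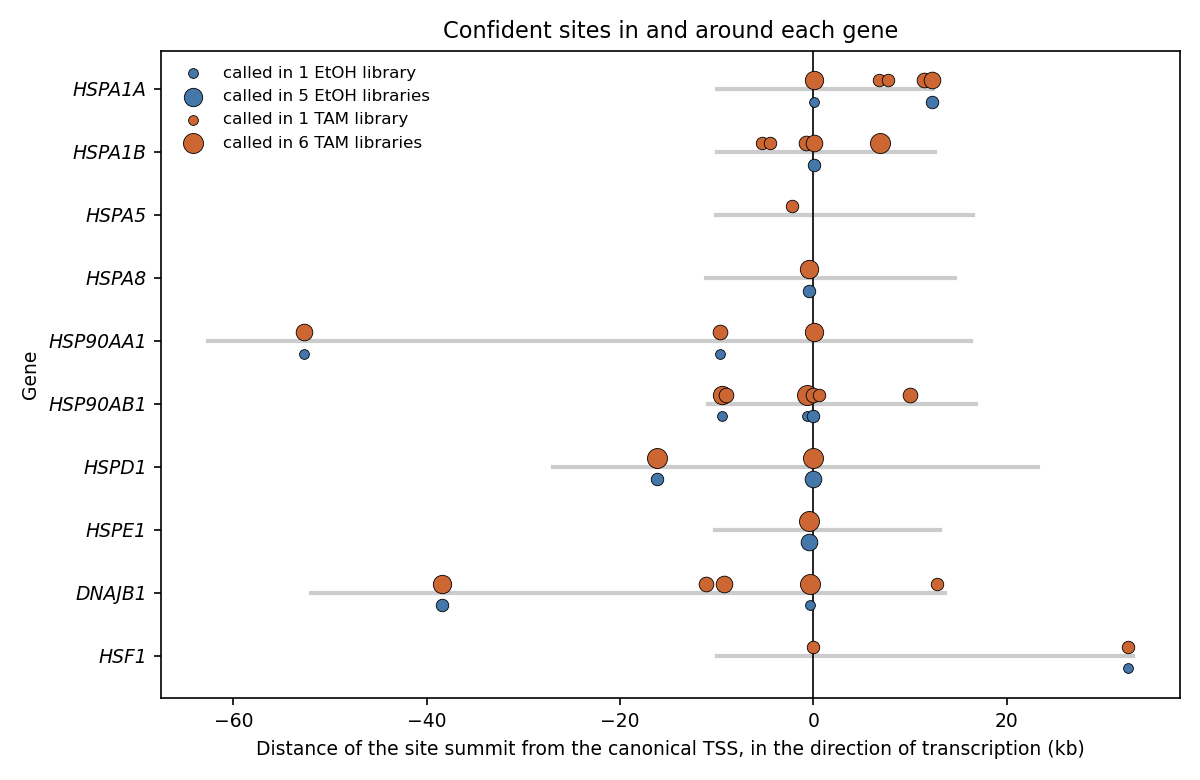
Confident sites (circles) in the window of each gene (gray line), by distance of the summit from the canonical TSS in kb along the direction of transcription, with circle size for the number of TAM (orange, above the line) and EtOH (blue, below it) libraries with a call. Most members have a site at 0, and DNAJB1 has one at −38.43 kb.

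Some sites lay far from the canonical TSS. In reach of DNAJB1, a site at chr19:14667340-14667871 was called in both S100A8 EtOH libraries, at fold enrichments of 8.37 and 9.93, in no S100A9 EtOH library, and in 5 of 6 TAM libraries, at 16.5 and 8.98 for S100A8 and 8.97, 10.6, and 19.2 for S100A9. The value of 19.2 ranked at percentile 99.6 of its library, the highest of any member site. The site lies in an intron of TECR, at −38.43 kb from the canonical DNAJB1 TSS, and its summits lay within 45 bp. Its sequence at chr19:14667563-14667713 on the plus strand is shown because it is the strongest of the 26 sites by this percentile, and it had none of the motifs named above. Capitals mark AGGGGGC, the core of the motif of the insulator protein CTCF, which was looked for after the sequence was seen and occurs in 14.3% of promoter sites and 8.72% of other sites within 100 bp of the summit. It was also found in 6 of the 26 sites near the members and in 6 of 10 member promoters, compared with 17.8% of all promoters.
TECR intron: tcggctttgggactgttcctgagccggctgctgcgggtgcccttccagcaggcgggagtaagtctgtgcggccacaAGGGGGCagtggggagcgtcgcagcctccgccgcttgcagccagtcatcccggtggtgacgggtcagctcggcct

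A site at chr2:198380214-198381209, inside the annotated extent of HSPD1, lies at −69 bp from a TSS of MOB4. It was called in 2 of 5 EtOH libraries, at 7.36 and 8.08, and in 6 of 6 TAM libraries, with a median of 11.7 (9.26 to 14.6). Downstream of HSPA1B, a site at chr6:31802008-31803062 was called in no EtOH library and in 6 of 6 TAM libraries, with a median of 10.4 (6.57 to 12.9). Upstream of HSP90AB1, a site at chr6:44205029-44205516 was called in 5 TAM libraries, at 8.15 to 11.9, and in 1 EtOH library, at 6.36.

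In the other chaperone families, 78 of 91 genes had a promoter call in at least 1 TAM library, where 60.6% of all genes had one, and 41 had one in at least 1 EtOH library, where 29% of all genes did. These shares were not tested. By the exact permutation test, 18 of the 91 had an unadjusted p of 0.05 or less with more calls in TAM, compared with 11.3% of all genes, and 0 had an adjusted p of 0.05 or less. DNAJC19, a J-domain protein of the mitochondrial import motor, was called in 4 EtOH and 6 TAM libraries, as HSPD1 and HSPE1 were. HSPA6, an inducible HSP70, was called in 3 and 6, and HSPA9, the mitochondrial HSP70, in 2 and 6. HSPA4L, an HSP110 family member, was called in 0 EtOH and 6 TAM libraries (exact permutation p = 0.01, adjusted p = 0.353).

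Of the cytosolic TRiC/CCT chaperonin and prefoldin genes, 11 of 14 were called in any TAM library, beside 60.6% of all genes, led by CCT4 and CCT7, subunits of the ring, with 3 EtOH and 6 TAM libraries each. PFDN4, a prefoldin subunit, had 1 and 6, and PFDN1, PFDN6, and VBP1 had none. All 13 genes of the endoplasmic reticulum chaperones were called in TAM, led by DNAJC3 and CANX, with 3 and 6 libraries each, and PDIA4, with 2 and 6. HSPA5, of the same compartment, had 1 and 1. All 8 mitochondrial genes were called in TAM, GRPEL2, a nucleotide exchange factor, in 2 and 6 libraries and CLPX in 2 and 5.

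Of the J-domain genes, 14 of 15 were called in any TAM library, again beside 60.6% of all genes, with DNAJB2 in 2 EtOH and 5 TAM libraries, DNAJA1 in 1 and 6, and DNAJC21 in 1 and 5, and DNAJA4 was called in none. All 17 HSP90 genes and cochaperones were called in TAM, with FKBP4 and HSPBP1 in 1 and 6 libraries and STIP1, which links HSP70 to HSP90, in 2 and 5. Of the other HSP70 and HSP110 genes, 10 of 11 were called in TAM and HSPA12B in none. HSPA1L, counted here, had the same calls as HSPA1A, in 1 EtOH and 5 TAM libraries, because the genes share a promoter. Of the small heat shock protein genes, 3 of 9 were called in any TAM library, beside the same 60.6%: HSPB1 in 5 TAM libraries, HSPB9 in 3, and HSPB6 in 1. Of the other heat shock factor genes, HSF2 was called in 0 and 2 libraries, and HSF4 and HSF5 in none. HSBP1, a negative regulator of HSF1 that was listed with them, was called in 1 and 4.

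Of 6 genes typical of basal mammary epithelium, 5 had a promoter call, with LAMB3 in 4 EtOH and 6 TAM libraries, KRT17 in 2 and 5, and KRT5 in 0 and 5, and TP63 in none. Of 6 genes typical of liver, blood, pancreas, or heart, 0 had a promoter call in any of the 11 libraries. For comparison, 7824 of all 20098 protein-coding genes had no promoter call in any library. These counts were not tested.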

How the data were processed

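Flag ChIP-seq was performed by the authors on S100A8-Flag and S100A9-Flag cells in EtOH or TAM, with cross-linking by protein-protein cross-linkers and formaldehyde. Bowtie2 was used by the authors for alignment to hg19, where only reads with a unique position were kept, and MACS2 for calling peaks over the matching input (versions not given in the sources used here). The deposited lists give for each peak the fold enrichment at the summit, a ratio over input, the −log10 p and −log10 q values, a display score, and the summit position. They reach to q = 0.05 and were filtered here at q ≤ 1e-07 on chromosomes 1 to 22 and X. Depth is unknown, so no counting intervals are given. Nothing says that the replicates came from separate cultures beyond the label of biological replicate.

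Genes and TSSs were those of GENCODE 44 on GRCh37. The members had 1 to 18 TSSs (median 3), and all genes 1 to 79 (median 3). The 10 members, the chaperone lists, and the motifs were chosen with earlier results of these data known, so no test was made over a list. HSPB11 was not matched by its symbol. Sites were called confident when peaks of at least 2 replicates of a condition overlapped by at least 1 bp, and confident sites of the 4 conditions were merged. Named were all members, up to 3 genes of each other list with the most calls, genes of a list called in no library where these were under 5, and genes that share a promoter with a member (TSSs within 1000 bp). The small heat shock protein genes without a call are more than that and are not named. WDR20, TECR, BOP1, and MOB4 share promoters with members, as do HSPA1L (260 bp from HSPA1A) and HSPE1-MOB4 (34 bp from HSPE1). Motifs were matched without mismatches on both strands, 250 bases upstream of canonical TSSs and 100 bp to either side of summits. The core of the CTCF motif was added after the data were seen.

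Permutation tests were tested on simulated data. Alternatives were every deposited peak, q ≤ 1e-10, equal numbers of top peaks, other promoter windows, omission of each library, and replicate numbers as a block. The canonical TSS alone was added after the data were seen. Python 3.11.15, numpy 2.4.6, pandas 2.3.3, matplotlib 3.10.9, and samtools 1.23.1 were used. Pol II and input libraries were not analyzed here.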

Additional observations from a re-analysis of the deposited data

Results flagged for a closer look

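In S100A9 TAM replicate 3, 10 members had a promoter call, and the gap to the other 5 TAM libraries (7 to 8 members) was large for the range of the group. This library also had the most peaks with q ≤ 1e-07 (40735). Without it, the TAM mean was 7.4 members.

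The fold enrichment at the HSPA8 promoter was 13.9 in S100A9 TAM replicate 1, far above the other 4 TAM libraries with a call (7.38 to 9.11). Of 14 groups examined in this way, chance flags about 1 in 20.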

How the results depend on the processing

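The number of genes with an adjusted p of 0.05 or less was 0 for both comparisons under every alternative run, so these tests do not speak to stability. The mean number of members with a promoter call was 4 in EtOH and 7.83 in TAM. It became 7.6 and 9.67 with every deposited peak, 1.4 and 6.17 at q ≤ 1e-10, 2.2 and 0.667 with equal numbers of top peaks, and 2.2 and 4.83 with the 5′ end of each gene alone. With the canonical TSS alone, it was 3.8 and 7.83, against 5.14 to 10.7% and 29.5 to 44.5% of all genes. Members within 10 kb became 9.6 in EtOH with every deposited peak, 1.6 in EtOH at q ≤ 1e-10, 2.6 and 1.17 with equal numbers of top peaks, and 3.8 and 6.83 in gene bodies alone. Members with promoter calls in at least 2 replicates of S100A8 EtOH (3) became 5 with every deposited peak or at least 1 replicate, 0 at q ≤ 1e-10 or with equal numbers of top peaks, and 1 with 5′ ends alone. In S100A9 EtOH, 4 became 9 with every deposited peak, 8 with at least 1 replicate, 1 with equal numbers of top peaks, and 0 at q ≤ 1e-10 or with every replicate. In S100A8 TAM, 8 became 0 with equal numbers of top peaks, 3 with 5′ ends alone, and 5 with every replicate, and in S100A9 TAM, 9 became 0 with equal numbers of top peaks. Equal numbers of top peaks left 1853 peaks in every library, so that more peaks were removed from the TAM lists than from the EtOH lists. The cause of the changes was not tested.

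Leaving out each library in turn gave 3.75 to 4.5 members in EtOH and 7.4 to 8 in TAM, 5.25 to 6.25 and 8.8 to 9.2 within 10 kb, and, for calls in at least 2 replicates, 6 members in S100A8 TAM and 7 to 8 in S100A9 TAM. In S100A9 EtOH it gave 0 to 4, with 0 without replicate 1 or without replicate 3. The exact permutation p of DNAJB1 was 0.02 to 0.1 when a library was left out. Replicate numbers were shared between groups, but the calls of same-numbered libraries did not vary together (correlations of −0.016 to 0.0119), so the numbers do not pair the samples. With the replicate number as a block, 0 genes had an adjusted p of 0.05 or less in either comparison, and DNAJB1 had an exact permutation p of 0.125.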
